A study of Mus musculus with 10 samples.

Results

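From passage 1 (P1) to passage 3 (P3), neuronal and midbrain transcripts became lower and glial ones higher in cultures of ventral midbrain neural stem cells, and the report concerns how much of each gene's change was seen with Lin28a overexpression. For every gene the passage change was taken as log2(FPKM + 1) at P3 minus P1, where FPKM counts sequenced fragments relative to a gene's length and the library's total. The difference described throughout is the passage change in the Lin28a culture minus that in the control culture. It covers 10513 of the 17919 genes in the RNA-seq tables, namely those at 5 FPKM or more in any of the 4 RNA-seq libraries.

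The neural stem cells came from ICR mice, from ventral midbrain dissected at embryonic day 10. They were transduced with a lentivirus carrying Lin28a or with a mock control virus and passaged every 4 days. The 4 groups are control at P1, control at P3, Lin28a at P1 and Lin28a at P3, with 1 library each, so no value below has a replicate check and no test was run. The sources used here do not give the viral promoter, the number of embryos or whether both passages came from 1 culture.

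Lin28a binds RNA in embryonic and stem cells and keeps the precursors of let-7 microRNAs from being processed. let-7 accumulates as cells mature and lowers messenger RNAs that carry sites for it, many of which encode growth and proliferation factors. Neural progenitors make neurons first and glia later, and the ventral midbrain is the embryonic source of the dopamine neurons of the substantia nigra.

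The 4 libraries were alike in breadth, with 9448 to 9542 genes at 5 FPKM or more in each. Their depth is unknown, and low values gave depths of 1.01 to 1.15 relative to P1 control. The labelled cell type was checked on progenitor markers. Sox2, a neural progenitor transcription factor, was at 262 FPKM at P1 and 390 at P3 in control, and at 260 and 372 in Lin28a. Not all genes of the progenitor list rose as Sox2 did. Nes had a passage change of -1.17 in control and -0.81 in Lin28a, and Prom1 of -2.31 and -1.17. Of the list's 32 genes, Pax3 and Pax7 were under 0.5 FPKM in all 4 libraries. Over the 29 among the genes described, the median passage change was 0.24 in control and 0.09 in Lin28a. Of 20 microglial and myeloid markers, 15 were under 0.5 FPKM in all 4 libraries, as were 9 of 15 endothelial markers, including Pecam1 and Cdh5. The blood cell markers Alas2 and Slc4a1 were also under 0.5 FPKM in every library. Mesenchymal markers were present, with a summed level of 187 to 754 FPKM over 18 genes.

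Lin28a itself was at 0.128 FPKM at P1 and 0.0620 at P3 in control, and at 478 and 104 in Lin28a. The labels hold in all 4 libraries, and the transcript was lower at P3 than at P1 in the transduced culture. Its passage change there was -2.19 on the log2 scale. The paralog Lin28b stayed under 1 FPKM in each library, so it is not among the genes described.

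Most genes had nearly the same passage change in both cultures, and where they did not the Lin28a change was usually the smaller one. The difference lay within 0.5 of 0 for 86.6% of the genes, and its median over all genes was -0.01. It was 1 or more, a 2-fold difference on this scale, for 168 genes (1.6% of all) and -1 or less for 80 genes (0.761%). Passage changes had an SD over genes of 0.97 in control and 0.78 in Lin28a.

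Genes were sorted into classes that treat both cultures alike, so that exchanging them exchanges the names blunted and stronger. A change was called blunted where control moved by 2-fold or more and Lin28a by at least 2-fold less, and stronger in the reverse case. By this rule 152 genes had a blunted fall (1.45%) and 72 a blunted rise (0.685%), against 9 genes with a stronger rise (0.0856%) and 4 with a stronger fall (0.038%). A rise past 2-fold in both cultures with a difference under 1 was called kept, and 795 genes had one (7.56%), while 342 had a kept fall (3.25%). A further 3 genes went past 2-fold in opposite directions, 2 of them up in control (0.019%) and 1 down (0.00951%). Of the rest, 8282 genes were under 2-fold in both cultures (78.8%), and 488 (4.64%) and 366 (3.48%) rose and fell past 2-fold in at least 1 culture without meeting any of these rules.

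**Figure D1:**
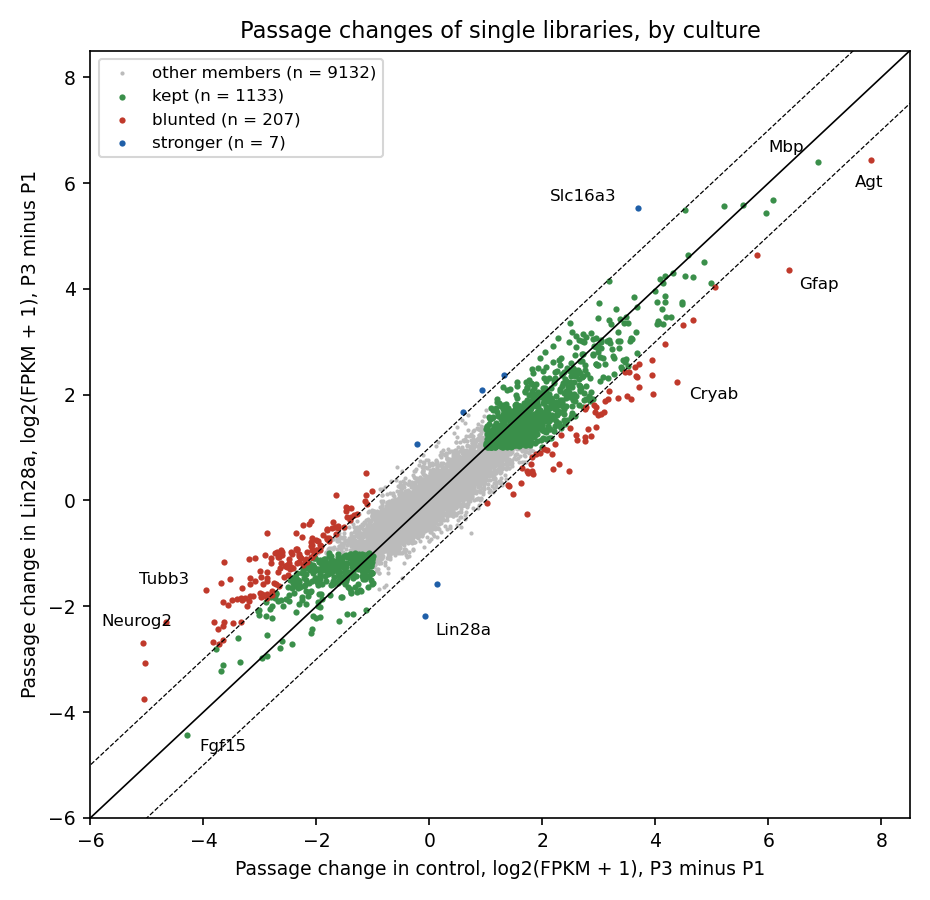
Each point is 1 of the 10479 genes that were ranked, with the passage change in control on the x axis and in Lin28a on the y axis, both as log2(FPKM + 1) at P3 minus P1. The solid line marks equal changes and the dashed lines a difference of 1. The 207 blunted genes lie outside the dashed lines on the side of a smaller Lin28a change, at both ends of the cloud, and 7 genes are stronger.

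Not every gene could be placed firmly. Of the genes described, 34 were left out of the ranking because they are short non-coding genes, near-identical copies, or at or near the lowest listed value in 1 library alone. The kinase gene Mapk9, for example, was at 17.3 and 15.6 FPKM at P1 and P3 in Lin28a and at 18.4 in control at P1, but was listed at the floor of the tables in control at P3. Without these 34 genes 207 blunted and 7 stronger genes remained, 1 of the latter being Lin28a. All 3 genes with opposite changes were among the 34.

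The falls were reduced more than the rises. Of 782 ranked genes that fell 2-fold or more in control (7.56% of all genes did), 685 had a smaller change in Lin28a, and the median gene kept 65.1% of its control change. Of 1246 ranked genes that rose 2-fold or more in control (12% of all genes did), 1010 had a smaller change and the median gene kept 82.0%. Genes chosen by their change in one culture lean toward a smaller change in the other, so the choice was also made the other way. Of 494 ranked genes that fell 2-fold or more in Lin28a (4.78% of all genes did), the median gene had 123% of that change in control. Of 938 that rose as much in Lin28a (9.01% of all genes did), the median gene had 108%.

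For blunted genes the cultures were close at P1 and apart at P3. Among the 152 blunted falls 139 were within 0.5 of each other at P1, and the median gap, Lin28a minus control, was -0.17 at P1 and 1.16 at P3. Among the 72 blunted rises 60 were within 0.5 at P1, with median gaps of 0.01 and -1.24. Most blunted genes still moved in the same direction with Lin28a. The fall was past 2-fold there too in 87 of 152 genes, and the rise in 43 of 72.

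**Figure D2:**
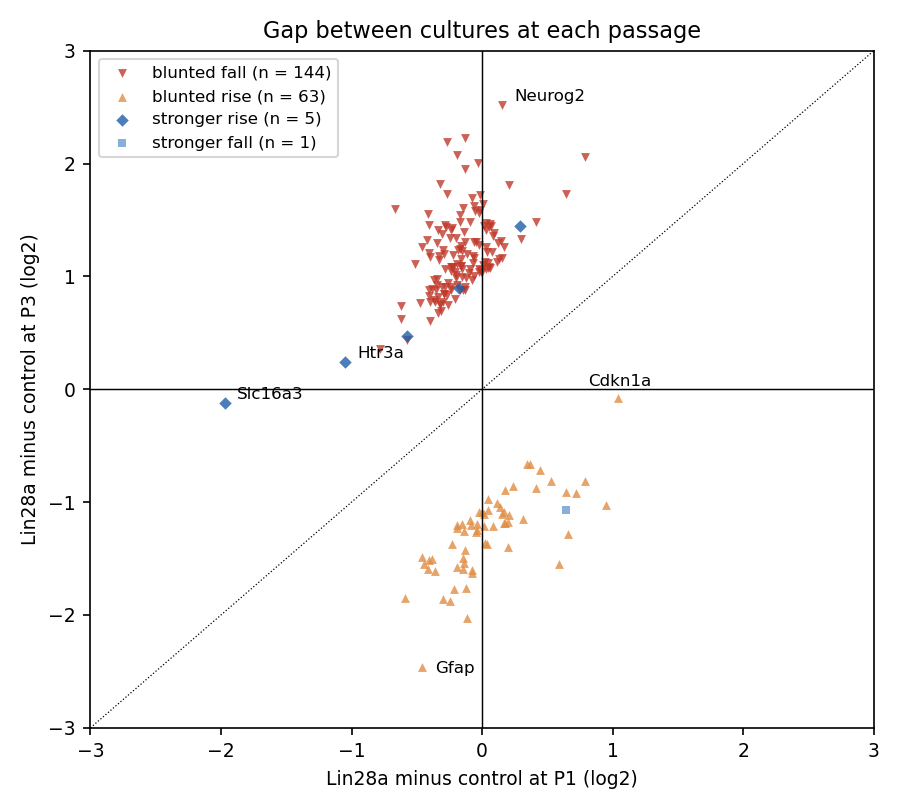
Gap between cultures, Lin28a minus control in log2(FPKM + 1), at P1 on the x axis and at P3 on the y axis, for ranked blunted and stronger genes other than Lin28a. The 144 blunted falls stand above and the 63 blunted rises below the dotted line of equal gaps, mostly near 0 on the x axis, while Slc16a3, a stronger rise, stands far to the left.

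Factors that start neuronal differentiation made up a prominent group with blunted falls. Of 14 proneural factors among the genes described, 8 had a blunted fall, against 1.45% of all genes, and 4 a kept one, against 3.25%. Their median change was -2.57 in control and -1.59 in Lin28a. In a sample of mixed cells, fewer neurons and less RNA per neuron cannot be told apart. Neurog2, a basic helix-loop-helix factor that commits midbrain progenitors to the neuronal fate, was at 57.5 FPKM at P1 and 0.750 at P3 in control, and at 64.1 and 9.03 in Lin28a. The cultures were close at P1, and at P3 Lin28a held the higher level, with a difference of 2.37.

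The same picture held for factors that act after Neurog2. Nhlh2, a factor of newborn neurons, was at 31.5 and 0.288 FPKM at P1 and P3 in control and at 28.6 and 5.02 in Lin28a. Ebf3, which promotes neuronal differentiation and migration, was at 14.8 and 0.251 in control and at 11.97 and 2.44 in Lin28a. Insm1, a zinc finger factor of neuronal precursors, was at 26.5 and 3.47 in control and at 24.1 and 10.1 in Lin28a. Each of these 3 genes was higher in Lin28a only at P3, by 2.23 for Nhlh2, 1.46 for Ebf3 and 1.31 for Insm1 on the log2 scale.

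Genes of the neuronal cytoskeleton and of vesicle release followed. Of 38 pan-neuronal genes 37 had a difference above 0, against 48.8% of all genes, and 17 had a blunted fall, against 1.45%. The list's median change was -2.11 in control and -0.84 in Lin28a. Tubb3, the neuronal beta-tubulin, was at 359 FPKM at P1 and 22.2 at P3 in control, and at 315 and 96.8 in Lin28a. Its P3 level was thus several times higher with Lin28a, though still well under either P1 level.

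Dcx, a microtubule protein of migrating neurons, was at 64.7 and 6.73 FPKM in control and 53.5 and 24.6 in Lin28a. Syt4, a synaptotagmin of secretory vesicles, had the greatest difference of all ranked genes, 2.46, with 21.5 and 0.814 FPKM in control and 17.6 and 7.29 in Lin28a. Kif5c, a motor of axonal transport, was at 59.2 and 4.21 in control and 57.8 and 20.0 in Lin28a. In all of these the P1 libraries were close and P3 control was the lowest of the 4.

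Most genes that specify the ventral midbrain had a blunted or a kept fall. Of 25 such genes 9 had a blunted fall, against 1.45% of all genes, and 8 a kept one, against 3.25%. Of the others 6 were under 2-fold in both cultures. A further 1 rose and 1 fell past 2-fold in at least 1 culture without being blunted, stronger or kept. The median difference over the 25 genes was 0.71. Lmx1b, a LIM homeobox factor that midbrain dopamine neurons need, was at 12.8 and 0.971 FPKM in control and 12.9 and 5.15 in Lin28a. Lmx1a, its floor plate paralog, was at 30.4 and 4.61 in control and 31.5 and 14.2 in Lin28a. Foxa2, a forkhead factor of the floor plate and dopamine neurons, was at 18.4 and 0.830 in control and 15.9 and 3.64 in Lin28a.

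The secreted signals of this region differed among themselves. Shh, the floor plate morphogen, was at 50.6 and 2.64 FPKM in control and 45.3 and 6.24 in Lin28a, a difference of 1.15. Slit2, an axon guidance cue, was at 90.1 and 6.25 in control and 93.2 and 14.2 in Lin28a, a difference of 1.02. Ntn1, another guidance cue of the floor plate, was at 323 and 109 in control and 304 and 106 in Lin28a, a difference of 0.04. Msx1, a homeobox factor of the dopaminergic domain, was likewise nearly equal, with a difference of -0.01. Ntn1 and Msx1 were chosen for naming after their values were seen, to show that part of this program had nearly equal falls in both cultures.

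Of 12 genes of dopamine neurons all had a difference above 0, against 48.8% of all genes. A blunted fall was seen for 5 of them, against 1.45%. This list shares En1, En2, Lmx1b and Foxa2 with the midbrain list. En1, a homeobox factor that keeps dopamine neurons alive, was at 24.5 and 5.83 FPKM in control and 21.5 and 8.83 in Lin28a. Nr4a2, the nuclear receptor that drives dopamine neuron identity, was at 6.99 and 1.23 in control and 6.13 and 1.86 in Lin28a. Both were kept falls, with differences of 0.71 and 0.53. Th, the rate-limiting enzyme of dopamine synthesis, did not reach 5 FPKM in any library and is not among the genes described.

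Across the classes, 37 of the 152 blunted falls were on the neuronal or midbrain lists, which hold 85 of the 10513 genes, and none was on the glial lists. Among the 342 kept falls 18 were on the neuronal or midbrain lists.

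**Figure D3:**
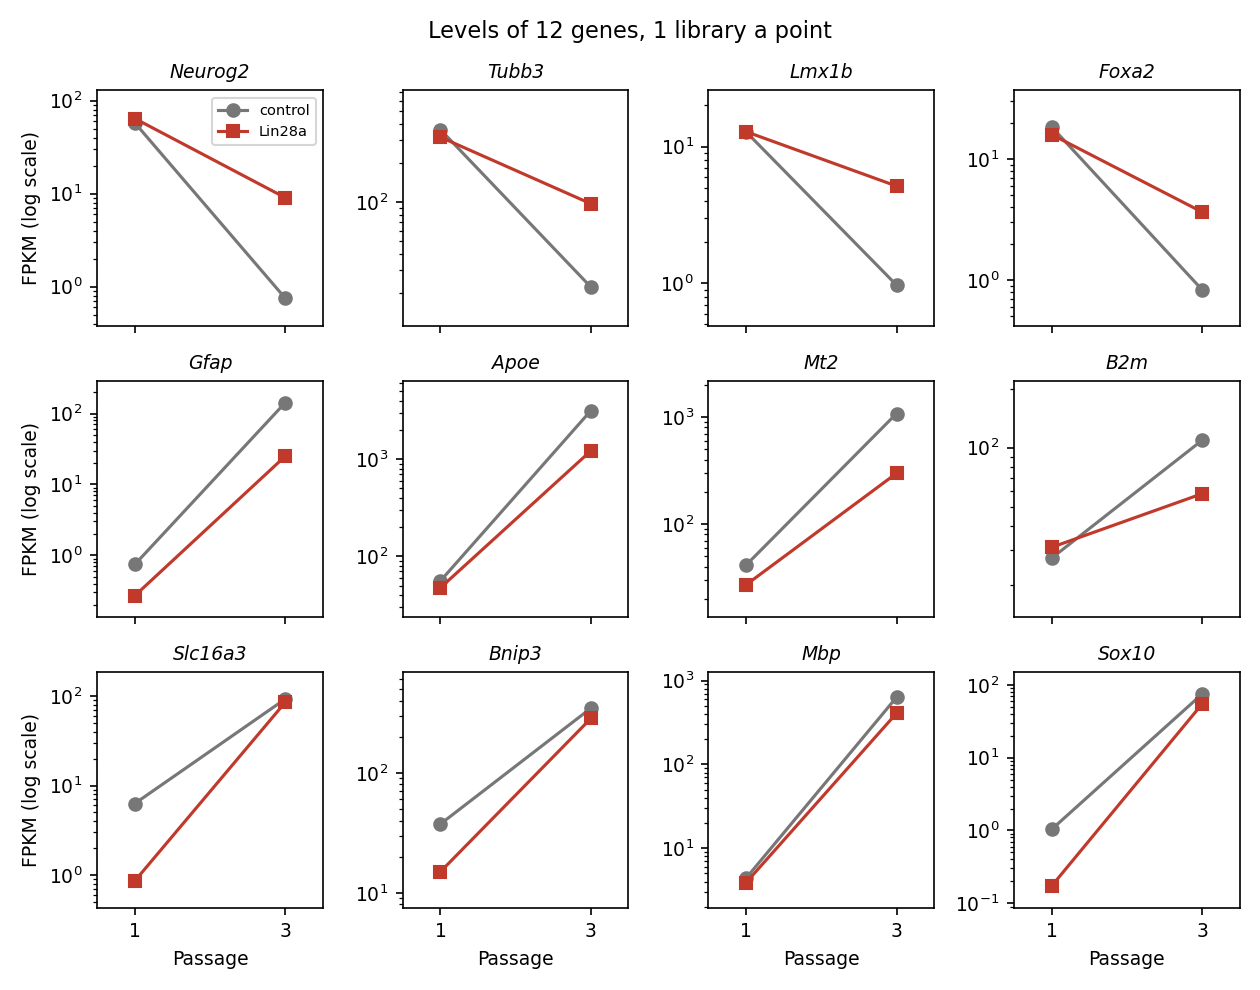
Levels in FPKM on a log axis at P1 and P3 for 12 genes, each point 1 library, with control in grey circles and Lin28a in red squares. For Neurog2, Tubb3, Lmx1b and Foxa2 the lines part at P3 with Lin28a on top, for Gfap, Apoe, Mt2 and B2m control is on top at P3, and for Slc16a3, Bnip3 and Sox10 the wider gap is at P1.

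Kept falls included genes of fibroblast growth factor (FGF) signaling. Fgf15, a ligand of the midbrain and hindbrain, was at 20.8 and 0.115 FPKM in control and 24.9 and 0.205 in Lin28a. Fgf8, the signal of the midbrain-hindbrain boundary, was at 5.84 and 0.269 in control and 6.84 and 0.191 in Lin28a. Dusp6, a phosphatase induced by FGF signaling that limits it, was at 82.6 and 12.8 in control and 73.0 and 10.8 in Lin28a. These 3 genes had differences of -0.14, -0.29 and -0.05. Over the 21 FGF pathway genes the median difference was -0.10, and Dusp4, another phosphatase of this pathway, was the single blunted fall, with a difference of 1.19. That list also holds Canx, a chaperone of the endoplasmic reticulum that does not belong to the pathway.

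In the Hedgehog pathway 10 of 12 genes had a difference above 0, against 48.8% of all genes, with a median of 0.56. Its list shares Shh, Foxa2, Ptch1, Gli1 and Nkx2-2 with the midbrain list, and its 2 blunted falls are Shh and Foxa2. Ptch1, the receptor of Shh and itself a target of the pathway, was at 66.8 and 45.8 FPKM in control and 60.0 and 72.6 in Lin28a. Gli1, a transcriptional target and effector, was at 7.72 and 0.664 in control and 7.06 and 1.64 in Lin28a. Among 30 Wnt pathway genes the median difference was 0.13, and 2 had a blunted fall, against 1.45% of all genes. Lef1, a transcription factor that acts with beta-catenin, was at 29.0 and 1.68 in control and 32.2 and 5.68 in Lin28a. Nkd1, a feedback inhibitor, was at 24.6 and 7.32 in control and 20.8 and 14.6 in Lin28a. In the Notch pathway (21 genes, median 0.23) and among BMP and Id genes (14 genes, median -0.17) no gene went past 2-fold in the difference.

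**Figure D4:**
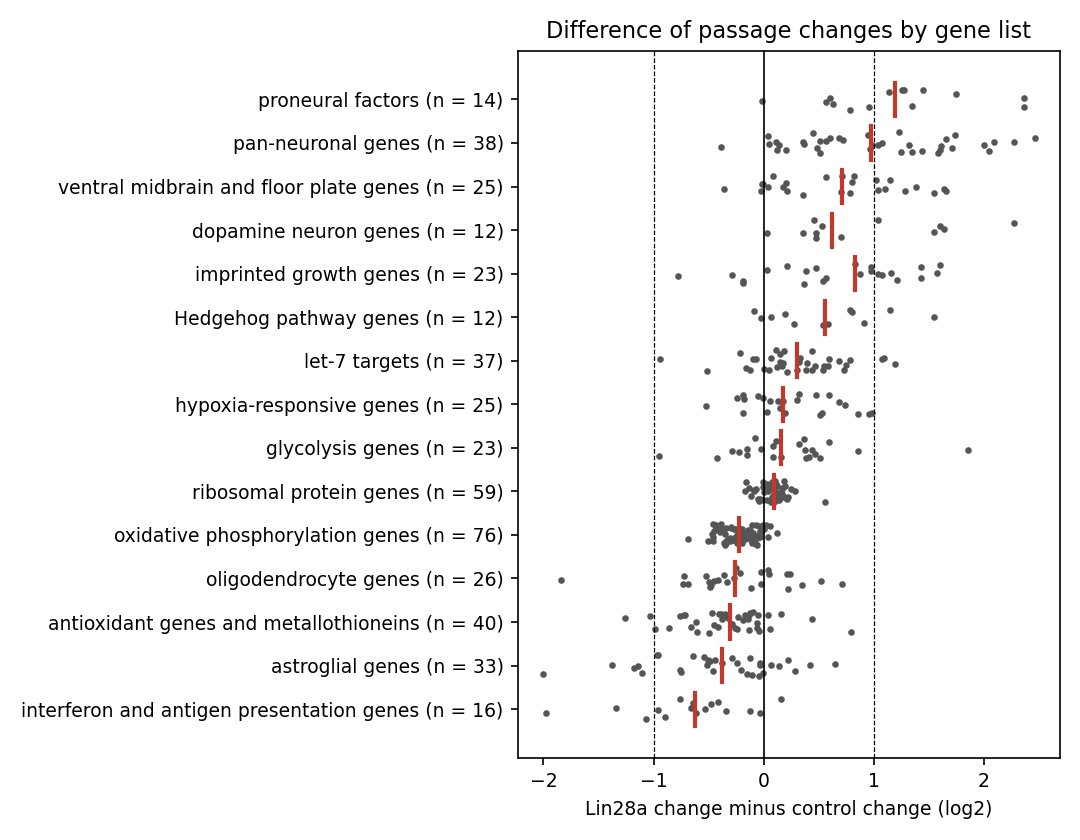
Difference of passage changes, Lin28a minus control in log2, for the genes of 15 lists, 1 point a gene, with the list's median as a red bar and dashed lines at -1 and 1. Neuronal, midbrain and imprinted lists lie mostly to the right of 0, and astroglial and interferon lists mostly to the left.

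Most astroglial genes were higher at P3 in both cultures, by a smaller step with Lin28a. Of 33 such genes 22 had a kept rise, against 7.56% of all genes, and 5 a blunted one, against 0.685%. A difference below 0 was seen for 27, against 51.2% of all genes. The list's median change was 2.64 in control and 2.26 in Lin28a, and its median difference of -0.37 shrank to -0.13 when the 4 libraries were quantile normalized. Gfap, the intermediate filament of astrocytes, was at 0.743 FPKM at P1 and 142 at P3 in control, and at 0.269 and 25.01 in Lin28a. Its rise was large in both cultures and its difference was -2.005.

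Other astroglial genes had higher levels at P3 in control too. Apoe, a lipid carrier secreted by astrocytes, was at 56.0 and 3154 FPKM in control and 47.6 and 1218 in Lin28a. Aqp4, the astrocytic water channel, was at 5.42 and 143 in control and 3.81 and 46.8 in Lin28a. Agt, the precursor of angiotensin, was at 0.323 and 297 in control and 0.159 and 99.3 in Lin28a. Ntrk2, a receptor for the neurotrophin BDNF that astrocytes also express, had a kept rise, with 20.8 and 277 in control and 12.6 and 171 in Lin28a and a difference of -0.01.

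Beyond the lists, the genes with the greatest blunted rises were of varied kinds. Cryab, a small heat shock protein, was at 1.06 and 42.0 FPKM in control and 2.11 and 13.7 in Lin28a, a difference of -2.14. Gpd1, a glycerol phosphate dehydrogenase, was at 1.55 and 13.2 in control and 1.35 and 2.48 in Lin28a. Dhrs1, a short-chain dehydrogenase, was the most abundant of those named here, with 46.5 and 320 in control and 39.2 and 86.2 in Lin28a. Cd38, an enzyme that consumes NAD, was at 0.547 and 6.07 in control and 0.775 and 1.68 in Lin28a. In each of these genes P3 control was the highest of the 4 libraries. Of the 72 blunted rises 22 reached 5 FPKM in P3 control alone, so that their membership rested on that library.

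Most oligodendrocyte genes had a kept rise. They were 22 of 26 genes, against 7.56% of all genes, and the list had a median change of 3.79 in control and 3.37 in Lin28a. The single blunted rise, and the list's largest difference, was that of Opalin, a membrane protein of myelinating cells. It was listed at the floor at P1 and at 6.25 FPKM at P3 in control, and was at 0.0429 and 1.11 in Lin28a, so that it passed the minimum through P3 control alone. Mbp, a main protein of myelin, was at 4.39 and 633 FPKM in control and 3.88 and 408 in Lin28a. Myrf, the transcription factor that turns on myelin genes, was at 0.438 and 24.4 in control and 0.348 and 22.4 in Lin28a. The differences were -0.49 for Mbp and -0.02 for Myrf.

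On this list 8 genes had a difference above 0 and 18 below, against 48.8% and 51.2% of all genes. Genes of oligodendrocyte precursors stood on both sides. The genes of this paragraph were named after their values were seen, apart from Sox10. Sox10, the factor that specifies the lineage, was at 1.04 and 74.8 FPKM in control and 0.173 and 54.6 in Lin28a. Pdgfra, the growth factor receptor of precursors, was at 1.81 and 15.9 in control and 0.458 and 11.6 in Lin28a. Both were lower in Lin28a at P1 and at P3, and the gap was wider at P1, which gave differences of 0.35 and 0.52. Olig2, a factor of both precursors and ventral progenitors, was at 55.7 and 130 in control and 34.4 and 93.3 in Lin28a, again lower at both passages. Olig1, its paralog, had a difference of -0.33 and Gpr17, a receptor of late precursors, one of -0.41. The neural crest and Schwann cell list shares Sox10 with this one, and its summed level was 9.81 and 339 FPKM in control and 7.65 and 222 in Lin28a. The part of such cells in these values was not tested.

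Antioxidant genes and metallothioneins had smaller rises with Lin28a. Of 40 genes 35 had a difference below 0, against 51.2% of all genes. Their median of -0.31 shrank to -0.16 after quantile normalization. Metallothioneins are small proteins that bind zinc and copper and are induced by metals and glucocorticoids. Mt2 was at 41.4 and 1076 FPKM in control and 27.1 and 298 in Lin28a, a difference of -1.26. Mt1 was at 89.7 and 1520 in control and 52.7 and 548 in Lin28a, a difference of -0.71. For both the control level was the higher at P1 and the gap was wider at P3. Hmox1, which degrades heme, was at 5.39 and 18.9 in control and 7.25 and 11.6 in Lin28a.

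The promoters of Mt1 and Mt2 are shown because these neighbouring genes moved together and carry the known metal response element. The sequences run 5′ to 3′ on the gene's strand from 250 bases before to 50 bases after the start, from RefSeq on GRCm38.p6, a later build than that of the expression tables. Capitals mark the element's core, TGCGCNC or TGCACNC, on either strand. The Mt1 promoter, at chr8:94178839-94179138 on the + strand, holds 3 and the Mt2 promoter, at chr8:94172368-94172667 on the + strand, holds 4.
Mt1: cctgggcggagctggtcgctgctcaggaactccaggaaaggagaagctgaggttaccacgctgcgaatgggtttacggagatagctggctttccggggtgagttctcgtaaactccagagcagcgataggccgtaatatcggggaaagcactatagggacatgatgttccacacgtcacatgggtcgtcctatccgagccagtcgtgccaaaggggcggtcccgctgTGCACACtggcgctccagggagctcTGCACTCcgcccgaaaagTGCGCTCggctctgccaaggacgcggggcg
Mt2: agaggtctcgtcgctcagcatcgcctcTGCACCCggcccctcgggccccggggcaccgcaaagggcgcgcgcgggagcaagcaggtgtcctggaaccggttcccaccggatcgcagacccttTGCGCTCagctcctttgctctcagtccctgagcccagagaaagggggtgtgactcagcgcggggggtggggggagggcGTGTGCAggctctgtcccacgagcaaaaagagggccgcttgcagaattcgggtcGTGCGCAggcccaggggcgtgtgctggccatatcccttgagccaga
The core is short and common: 25.6% of all 27025 promoters hold it, 38.3% of the 7942 promoters matched to genes described here, and 12.2% of the 49 matched to blunted rises.

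Energy metabolism did not behave as 1 block. All 23 glycolysis genes were higher at P3 in both cultures, with a median change of 1.85 in control and 2.21 in Lin28a. A difference above 0 was seen for 15 of them, against 48.8% of all genes. The 25 hypoxia-responsive genes had medians of 1.42 and 1.68, and 18 had a difference above 0, against 48.8% of all genes. The 76 genes of oxidative phosphorylation had medians of 0.69 and 0.47, and 71 had a difference below 0, against 51.2% of all genes. Their median difference of -0.23 shrank to -0.05 after quantile normalization. None of these 76 genes went past 2-fold in the difference.

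Among ranked genes the greatest stronger rise belonged to a gene of lactate export. Slc16a3, the monocarboxylate transporter MCT4, was at 6.29 FPKM at P1 and 92.6 at P3 in control, and at 0.860 and 85.2 in Lin28a. The cultures were close at P3, and the difference of 1.85 came from the lower level in Lin28a at P1. Bnip3, a mitophagy receptor induced by hypoxia, was at 37.5 and 346 in control and 15.0 and 284 in Lin28a. Pdk1, a kinase that keeps pyruvate out of mitochondria, was at 8.81 and 54.3 in control and 3.65 and 46.3 in Lin28a. Both again had their wider gap at P1, with differences of 0.98 and 0.85 that stayed just under 1.

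The promoters of Slc16a3 and Bnip3 are shown for the hypoxia response core ACGTG, in capitals on either strand. The Slc16a3 promoter lies at chr11:120948817-120949116 on the + strand and the Bnip3 promoter at chr7:138909457-138909756 on the - strand, both from RefSeq on GRCm38.p6.
Slc16a3: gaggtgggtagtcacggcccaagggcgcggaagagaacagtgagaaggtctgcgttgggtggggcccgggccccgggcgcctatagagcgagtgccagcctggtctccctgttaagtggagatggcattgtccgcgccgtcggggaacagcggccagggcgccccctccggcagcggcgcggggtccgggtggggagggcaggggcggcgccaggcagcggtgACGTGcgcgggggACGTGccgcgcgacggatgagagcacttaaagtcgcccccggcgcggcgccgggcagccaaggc
Bnip3: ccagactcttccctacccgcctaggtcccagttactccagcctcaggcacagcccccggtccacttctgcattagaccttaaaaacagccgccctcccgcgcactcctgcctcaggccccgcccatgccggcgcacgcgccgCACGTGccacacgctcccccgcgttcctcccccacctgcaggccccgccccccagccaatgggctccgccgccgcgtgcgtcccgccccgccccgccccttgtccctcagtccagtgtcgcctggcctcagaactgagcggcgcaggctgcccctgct
Slc16a3 holds 2 separate matches, and Bnip3 holds 2 that overlap on opposite strands in 1 palindrome. The core stands in 19.7% of all promoters and 26.8% of those of the genes described. By class it stands in 24.5% of the 601 matched to kept rises, as Bnip3 is, in 26.5% of those of blunted rises and in 14.7% of those of blunted falls. Only 4 promoters were matched to stronger rises, and 3 of these hold it. For the E-box forms CAGATG and CAGCTG, which proneural factors bind, the shares were 30.4% of all promoters, 23.0% of those of the genes described, 30.4% of those of blunted falls and 36.7% of those of blunted rises.

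The few other stronger changes were spread over unrelated genes. Egfr, the receptor of epidermal growth factor, was at 21.8 and 56.2 FPKM in control and 14.3 and 78.4 in Lin28a, lower at P1 and higher at P3. Ass1, an enzyme of arginine synthesis, was at 7.38 and 11.7 in control and 6.43 and 22.7 in Lin28a. H19, an imprinted long non-coding RNA of fetal growth, was at 17.1 and 33.6 in control and 21.2 and 93.5 in Lin28a. Their differences were 1.05, 1.07 and 1.15.

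Imprinted genes, which are expressed from 1 parental allele and often regulate fetal growth, had mostly smaller falls with Lin28a. Of 23 such genes 19 had a difference above 0, against 48.8% of all genes, with a median of 0.83. A difference of 1 or more was seen for 8, against 1.6% of all genes. Of these, 6 were blunted falls and 1 was the stronger rise of H19, while Igf2 changed by under 2-fold in both cultures. Snurf, a blunted fall left out of the ranking, was apart already at P1. It was at 3.55 and 0.684 FPKM in control and 28.8 and 28.7 in Lin28a. Dlk1, a Notch-like surface protein, was at 20.2 and 2.34 FPKM in control and 23.5 and 10.7 in Lin28a. Meg3, a long non-coding RNA of the same imprinted cluster, was at 78.0 and 15.5 in control and 73.3 and 45.2 in Lin28a. Rian, a further non-coding RNA of that cluster, was at 101 and 18.99 in control and 102 and 53.5 in Lin28a. The 3 genes were within 0.21 of each other between cultures at P1 and were higher in Lin28a at P3 by 1.81, 1.48 and 1.45.

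Peg10, a gene derived from a retrotransposon, was at 178 and 37.8 FPKM in control and 182 and 80.3 in Lin28a. Igf2, the fetal growth factor encoded beside H19, was low throughout, with 3.26 and 1.87 in control and 4.32 and 7.29 in Lin28a, and reached 5 FPKM only in P3 Lin28a. With 5 FPKM required in all 4 libraries the median of the imprinted genes was 0.43.

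Interferon and antigen presentation genes made up the list with the lowest median difference, -0.63. Of 16 genes among those described 15 had a difference below 0, against 51.2% of all genes. A blunted rise was seen for 3 of them, against 0.685%. B2m, the light chain of class I antigen molecules, was at 27.4 and 109 FPKM in control and 31.0 and 58.3 in Lin28a. Bst2, an antiviral membrane protein, was at 4.54 and 18.8 in control and 6.98 and 10.2 in Lin28a. Ifi27, an interferon-induced gene, was at 1.02 and 5.64 in control and 2.90 and 2.27 in Lin28a. All 3 were somewhat higher in Lin28a at P1 and higher in control at P3. Ifi27 reached 5 FPKM in P3 control alone, the library where it is highest.

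Growth control genes showed small differences for the most part. Of 53 cell cycle genes none went past 2-fold, and the median change was -0.92 in control and -0.69 in Lin28a. Cenpa, the centromeric histone, had the greatest difference, 0.81, and was at 55.9 and 38.6 FPKM in control and 57.7 and 70.6 in Lin28a. Plk1, a mitotic kinase, was at 51.0 and 28.5 in control and 59.9 and 53.7 in Lin28a. On the other side Ccne2, a cyclin of entry into DNA replication, was at 13.7 and 3.83 in control and 17.8 and 2.88 in Lin28a.

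Cdkn1a, the cell cycle inhibitor p21, differed between cultures already at P1. It was at 34.4 and 148 FPKM in control and 71.7 and 140 in Lin28a, so its blunted rise, with a difference of -1.12, came from the higher level in Lin28a at P1. Over 29 genes that inhibit the cell cycle or respond to p53, the median difference was -0.21. Ribosomal protein genes had a median of 0.09 over 59 genes, cholesterol synthesis genes -0.09 over 23 and extracellular matrix genes -0.03 over 33. Immediate early and stress genes had a median of -0.07 over 19, and neural progenitor genes 0.07 over 29.

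Most let-7 microRNAs, which Lin28a blocks, had opposite passage changes in the 2 cultures in the small RNA libraries. The seed, bases 2 to 8, pairs with target RNAs and is shown in capitals, with the sequences as given by RefSeq. Of 10 family members counted, 9 share the seed GAGGUAG, and let-7j, with GAGGUAU and at most 2.05 CPM in any library, is not described further. Listed are 3 members whose passage changes had opposite directions, and let-7b-5p and let-7c-5p, whose changes had the same direction, since all 5 carry that seed.
let-7a-5p: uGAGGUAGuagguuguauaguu
let-7i-5p: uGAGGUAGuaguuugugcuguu
miR-98-5p: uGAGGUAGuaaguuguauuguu
let-7b-5p: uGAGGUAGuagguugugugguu
let-7c-5p: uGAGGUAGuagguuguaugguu
Levels are counts scaled to the library's microRNA total (CPM). let-7i-5p was at 10612 CPM at P1 and 22426 at P3 in control, and at 7513 and 2324 in Lin28a. let-7c-5p was at 13903 and 36399 in control and 15171 and 18518 in Lin28a, higher at P3 in both. let-7b-5p was also higher at P3 in both, with passage changes of 2.94 and 0.90. For both of these microRNAs the rise was smaller in Lin28a, with differences of -1.10 for let-7c-5p and -2.05 for let-7b-5p. The other 7 abundant members were higher at P3 in control and lower at P3 in Lin28a.

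**Figure D5:**
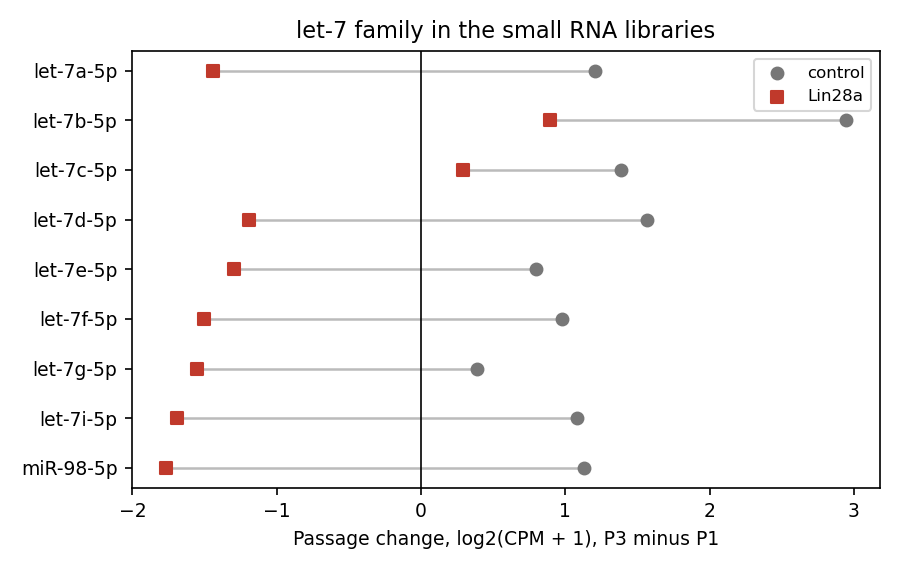
Passage change of 9 let-7 family members as log2(CPM + 1) at P3 minus P1, in control (grey circles) and Lin28a (red squares), 1 library a group. All control points lie right of 0, and in Lin28a all but let-7b-5p and let-7c-5p lie left of it.

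Genes listed as let-7 targets leaned toward a positive difference. Of 37 genes 30 had a difference above 0, against 48.8% of all genes, with a median of 0.31. A blunted fall was seen for 3 of them, against 1.45%. Igdcc3, a surface protein of the immunoglobulin family, was at 18.7 and 4.17 FPKM in control and 29.7 and 16.1 in Lin28a. Tgfbr1, the type I receptor of transforming growth factor beta, was at 33.4 and 12.2 in control and 44.7 and 35.8 in Lin28a. In both the Lin28a culture was higher already at P1 and the gap was wider at P3. The list also holds Imp3, a protein of ribosomal RNA processing with a difference of 0.17. It is not the RNA-binding protein Igf2bp3, which is listed too.

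Some of the best known targets already had unequal levels at P1 and fell in both cultures. Hmga2, a chromatin protein of growing progenitors, was at 4.10 and 1.43 FPKM in control and 14.6 and 5.68 in Lin28a. Its gap was 1.62 at P1 and 1.46 at P3, which left a difference of -0.16. Igf2bp1, an RNA-binding protein of fetal tissue, was at 9.53 and 1.32 in control and 23.4 and 6.44 in Lin28a. Its gap was 1.21 at P1 and 1.68 at P3, so its fall was smaller in Lin28a, with a difference of 0.47. Ccnd1, a G1 cyclin, went the other way, with 45.8 and 64.3 in control, 46.2 and 33.3 in Lin28a and a difference of -0.94. Hmga2 and Igf2bp1 were named after their values were seen.

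The polysome libraries at P3, which sample RNA bound to ribosomes and were not used for the difference, gave another view of the gap at P3. Values there are RPKM, reads scaled as in FPKM, and genes at 5 or more in either library were measured. Of 87 measured genes with a blunted fall 85 were higher in Lin28a, with a median log2 gap of 0.98, and 42 of them were past 2-fold. Over all 8766 genes measured 65% were higher in Lin28a and 0.878% were past 2-fold. Kept falls had the same direction with a smaller gap. Of 226 measured 208 were higher in Lin28a, with a median of 0.39, and 21 were past 2-fold. Of the 87 genes 34 reached 5 RPKM in Lin28a alone. Among the 52 that reached it in both libraries 51 were higher, with a median of 0.84.

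Blunted rises had a smaller gap in the polysome libraries. Of 37 measured genes 28 were lower in Lin28a, against 35% of all genes measured, with a median of -0.32. This direction was not particular to them. Among kept rises 458 of 543 measured genes were lower in Lin28a, with a median of -0.26. Of the 37 genes 7 reached 5 RPKM in control alone, and among the 30 that reached it in both libraries 21 were lower, with a median of -0.22. A gap past 2-fold toward control was seen for 3 of the 37 genes, against 0.114% of all genes measured. Mt2 was among them, and was at 104 RPKM in control and 48.4 with Lin28a. B2m had 33.1 RPKM in control against 37.9 with Lin28a, the opposite order to RNA-seq at P3, and Bst2 was at 16.3 and 14.1.

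Markers of other cell types were described in the same way. Of 18 mesenchymal markers, 10 were among the genes described, with a median difference of 0.50 and members past 2-fold in both directions. Vtn, a serum and matrix protein, was at 11.7 and 4.85 FPKM in control and 9.77 and 14.5 in Lin28a. Dcn, a proteoglycan of connective tissue, was at 29.4 and 3.64 in control and 27.3 and 8.45 in Lin28a. Acta2, the actin of smooth muscle, was at 37.0 and 211 in control and 40.1 and 105 in Lin28a, a blunted rise. The part of mesenchymal cells in the other differences was not tested. The endothelial list had 3 genes with a median of 0.11, the neural crest list 3 at 0.07 and the ependymal list 4 at -0.25.

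At the threshold itself the classes are close together. Syp, a synaptic vesicle protein, had a difference of 1.004 and was counted as higher, while Ypel1 at 0.999 was not. On the other side Fbxo2 at -1.009 was counted as lower and Ifrd2 at -0.993 was not.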

How the data were processed

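RNA-seq values were deposited as 1 value per RefSeq gene. They are read as FPKM from the tools that the submitters' processing notes name (Bowtie 1.0.0, TopHat2 2.0.6, Cufflinks 2.1.1, build mm9, with no roles given), since no file header names it. Polysome values were deposited in the same layout and are read as RPKM from the steps between low values, not per the file headers. Small RNA values are counts on mature microRNAs, per the file headers, and were scaled to CPM here. Reads on a microRNA with several loci may have been counted repeatedly. RNA-seq libraries are poly(A)-selected per the sample descriptions, although a total RNA kit is named in the extraction text.

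The tables were joined by gene symbol, and 9881 of 10513 genes matched a RefSeq symbol. A pseudocount of 1 was added before log2, which understates changes of low genes. Genes named are, by rule, Lin28a and Lin28b, up to 10 per class with the greatest difference (for kept genes the smallest) and up to 5 per list, leaving out genes at the floor of 4.8e-07, short genes and copies. The copies were chosen after their values were seen, and so were Msx1, Ntn1, Slit2, Mbp, Pdgfra, Olig2, Olig1, Gpr17, Mt1, Peg10, Hmga2 and Igf2bp1, which the rule does not name. The rule also does not name Sox2 and Nes, used to check the cell type. Genes given only as low markers, for list contents or at the threshold are outside the rule too. The genes, classes and 31 gene lists were chosen with earlier results of these data known. All deposited columns belong to the 10 libraries, with 0 columns of other samples. The calculation was tested on simulated data. Python 3.11.15, numpy 2.4.6, pandas 2.3.3 and matplotlib 3.10.9 were used.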

Additional observations from a re-analysis of the deposited data

Results flagged for a closer look

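Some genes and lists moved in opposite directions in the cultures. None of these differences was tested, since each group held 1 library. Ifi27, an interferon-induced gene, changed by 1.72 in control and -0.26 in Lin28a, a difference of -1.97, and reached 5 FPKM in P3 control alone. Vtn, a matrix protein, changed by -1.12 and 0.53, a difference of 1.65. Igf2, a fetal growth factor, changed by -0.57 and 0.64, a difference of 1.21. Htr3a, a serotonin-gated ion channel, changed by -0.22 and 1.07, a difference of 1.29, with the wider gap at P1, -1.05. The non-coding RNA 5730408K05Rik changed by 0.13 and -1.57, a difference of -1.71. The median change of ependymal markers was 0.26 and -0.08, which differ by -0.34. Among microRNAs the differences were -2.65 for let-7a-5p, -2.76 for let-7d-5p, -2.09 for let-7e-5p, -2.49 for let-7f-5p, -1.94 for let-7g-5p, -2.77 for let-7i-5p and -2.90 for miR-98-5p.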

How the results depend on the processing

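No paired analysis was possible because each group held 1 library and the labels carry no replicate numbers. In the counts that follow, higher and lower mean a difference of 1 or more and -1 or less, and the causes of the shifts were not tested beyond the construction of each setting. With a pseudocount of 0.1 there were 272 higher genes, 240 blunted falls, 19 stronger rises and 7 stronger falls. With a pseudocount of 5 there were 50 higher, 40 lower, 43 blunted falls, 36 blunted rises, 147 kept falls, 472 kept rises, 5 stronger rises and 0 opposed genes that rose in control. With 5 FPKM required in all 4 libraries there were 54 higher, 16 lower, 45 blunted falls, 15 blunted rises, 135 kept falls, 440 kept rises, 4 stronger rises, 0 stronger falls and 0 opposed genes of either kind. With a threshold of 1.5-fold there were 574 higher, 432 lower, 449 blunted falls, 343 blunted rises, 943 kept falls, 1508 kept rises, 32 stronger falls, 71 stronger rises, and 2 and 5 opposed genes that fell and rose in control. A minimum of 1 FPKM and no minimum each gave 9 stronger falls, a minimum of 10 FPKM gave 1 opposed gene that rose in control, and quantile normalization gave 2 that fell. Without genes at the floor there were 5 stronger rises, and 0 and 1 opposed genes that fell and rose in control. Without isolated drop-outs, short genes and copies, a setting chosen after seeing the data, there were 2 stronger falls, 5 stronger rises and 0 opposed genes. Blunted genes outnumbered stronger ones in each setting, from 60 against 4 to 792 against 103. Signs turned for Matn4 with a pseudocount of 0.1 (1.23), for ependymal markers with a minimum of 1 FPKM (0.22) or none (0.062), and, with 5 FPKM in all 4 libraries, for oligodendrocyte genes (0.015) and mesenchymal markers (-0.10). The median of proneural factors was 0.58 with no minimum and 0.31 with 5 FPKM in all 4 libraries. Median scaling moved no count by over 1.5 times.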
